A study of Mus musculus with 6 samples.

Results

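The genes described here are 32 genes of protein folding in the endoplasmic reticulum (ER) and of the unfolded protein response, listed by function and not by any measured value: chaperones and their cochaperones, lectin chaperones, enzymes that form disulfide bonds, stress sensors, ER-associated degradation (ERAD) and the translocon. All 32 were found among the 47643 gene identifiers in the files, and each had at least 1 count in every tumor. Of them, 31 passed the filter on low counts that kept 12088 genes for testing, and 1, Pdia5, did not.

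Tumor cells were sorted as CD45-EPCAM+ from mammary tumors of 6 female MMTV-PyMT mice of strain FVB/N, whose transgene uses the mouse mammary tumor virus promoter to drive the polyoma virus middle T antigen in the mammary epithelium. Every mouse was given the anti-VEGF-A antibody B20-4.1.1 at 5 mg/kg intraperitoneally, 2 injections per week for 6 weeks from 7 weeks of age. The study sorted treated tumors into high and low hypoxia, but the labels do not give that class for these samples, so the 6 tumors formed 1 group, without untreated controls, and no classes were compared. The labels give 6 separate samples, numbered here 1 to 6, and any p-value measures only the spread among them.

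The ER is where secreted and membrane proteins are threaded through the translocon, folded by chaperones, given N-glycans and disulfide bonds, and, when folding fails, sent back to the cytosol for degradation. When unfolded proteins build up, the sensors IRE1, PERK and ATF6 switch on the unfolded protein response, in which spliced XBP1, ATF4 and cleaved ATF6 raise transcription of chaperones and degradation genes. Mammary epithelium makes and secretes large amounts of protein, and low oxygen is known to hinder disulfide formation, which makes these genes of interest in tumors deprived of vessels.

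Libraries were made with QuantSeq, which reads the 3′ end of each polyadenylated transcript, and counts on genes lay between 2509482 and 5893246 per tumor. The floor of 3 counts stood at 0.509 to 1.20 CPM (counts scaled by the library total), which covers counting error only. The library of tumor 1 stood apart, since its median Pearson r with the rest, taken across genes, was 0.788, and those of tumors 2 to 6 were 0.905 to 0.939. Results that rest on tumor 1 are therefore given with and without it. The luminal epithelial markers (Epcam, Krt8, Krt18 and 4 others) summed to 3957 to 4874 CPM, as the sort should give. Of 12 plasma cell markers, a cell type rich in ER, 7 had at most 3 counts in every tumor (Iglc1, Tnfrsf17 and Cd79a had 0), and all 12 summed to 6.59 to 28.1 CPM. The 13 immune markers reached 235 CPM in tumor 3, where 6 erythroid genes came to 864 CPM, and stayed at 16.4 to 53.7 CPM elsewhere. In bulk RNA, fewer cells of a type and less RNA per cell cannot be told apart.

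Promoters of these genes were searched for an element named for ER stress. The genes were listed in part for their role in the response to that stress. The share of promoters with the element is therefore not independent of the list. RefSeq promoters (GRCm38.p6, 250 bases before to 50 bases after the start site) were found for 27 of the 32 genes (28 promoters, Derl2 having 2, and Ero1lb listed as Ero1b), but not for Hyou1, Manf, Atf6, Derl1 and Sec61a1. The ER stress response element (ERSE), searched on both strands as the letters CCAAT, any 9 bases and CCACG, was held by 10 of these 28 promoters (35.7%), against 39 of all 32851 RefSeq mouse promoters (0.119%). These 10 genes were Hspa5, Hsp90b1, Dnajc3, Calr, Canx, Pdia6, Ero1lb, Creld2, Syvn1 and Derl3, and Hsp90b1 held 2 copies. The 11 matches are shown with 5 bases on each side, on the strand where the element reads forward, with CCAAT and CCACG in capitals.
Hspa5 (chr2:34772020-34772048, plus strand): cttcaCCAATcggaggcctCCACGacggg
Hsp90b1 (chr10:86705633-86705661, minus strand): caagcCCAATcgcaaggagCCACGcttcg
Hsp90b1 (chr10:86705528-86705556, plus strand): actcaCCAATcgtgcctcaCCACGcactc
Dnajc3 (chr14:118937822-118937850, plus strand): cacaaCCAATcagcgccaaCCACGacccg
Calr (chr8:84847070-84847098, plus strand): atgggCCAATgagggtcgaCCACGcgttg
Canx (chr11:50325795-50325823, minus strand): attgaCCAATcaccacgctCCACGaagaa
Pdia6 (chr12:17266486-17266514, plus strand): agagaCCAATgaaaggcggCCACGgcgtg
Ero1lb (chr13:12565677-12565705, minus strand): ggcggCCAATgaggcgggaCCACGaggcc
Creld2 (chr15:88819515-88819543, minus strand): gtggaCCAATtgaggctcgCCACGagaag
Syvn1 (chr19:6046527-6046555, plus strand): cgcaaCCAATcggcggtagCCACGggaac
Derl3 (chr10:75893237-75893265, minus strand): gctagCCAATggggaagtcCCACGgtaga

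Of the 11 matches, 6 lay on the strand of the gene and 5 on the opposite strand, from base -212 (Hsp90b1) to base -26 (Syvn1) relative to the start site. Their 9-base spacers each held 6 or 7 G or C bases. A shorter element, ERSE-II (ATTGG, any 1 base and CCACG), was held by 2 of the 28 promoters (7.14%), those of Dnajb11 and Herpud1, against 12 of all promoters (0.0365%), and is shown in the same way.
Dnajb11 (chr16:22857847-22857867, plus strand): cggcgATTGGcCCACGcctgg
Herpud1 (chr8:94386372-94386392, plus strand): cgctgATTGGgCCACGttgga

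No exact match was found in these windows for UPRE (TGACGTGG, 0.676% of all promoters) or CRE (TGACGTCA, 1.79%), and CARE (TTGCATCA, 0.895%) matched once, in Herpud1. A match is a description of the letters and not of factor binding. The ERSE-II match of Dnajb11, at bases 8 to 18, was the only one downstream of its start site. The whole promoters of Hspa5, the most abundant of the 32 genes, and Hsp90b1, the one with the widest range between tumors, are given with their ERSE matches in capitals, the second match of Hsp90b1 being on the opposite strand.
Hspa5 promoter (chr2:34771840-34772139, plus strand): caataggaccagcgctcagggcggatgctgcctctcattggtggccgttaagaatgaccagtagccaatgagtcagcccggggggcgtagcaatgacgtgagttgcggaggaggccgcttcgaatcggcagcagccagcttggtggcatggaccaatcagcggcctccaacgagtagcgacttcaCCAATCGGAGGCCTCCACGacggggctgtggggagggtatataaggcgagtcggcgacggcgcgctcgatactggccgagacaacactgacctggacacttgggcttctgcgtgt
Hsp90b1 promoter (chr10:86705395-86705694, minus strand): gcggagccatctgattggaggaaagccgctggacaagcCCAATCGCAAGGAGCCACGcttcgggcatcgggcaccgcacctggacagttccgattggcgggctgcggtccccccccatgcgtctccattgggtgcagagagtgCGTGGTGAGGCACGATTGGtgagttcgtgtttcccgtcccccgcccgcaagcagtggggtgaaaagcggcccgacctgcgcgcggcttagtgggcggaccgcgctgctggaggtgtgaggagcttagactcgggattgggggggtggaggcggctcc

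**Figure D1:**
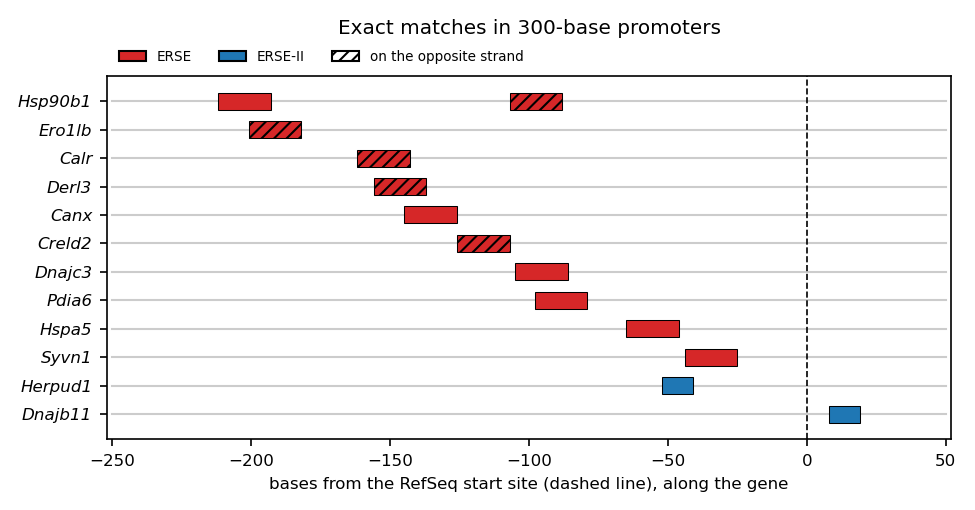
Positions of exact ERSE matches (red) and ERSE-II matches (blue) in 300-base RefSeq promoters of 12 genes, in bases from the start site along the gene, with hatching for the strand opposite to the gene. All but the match in Dnajb11 lie upstream of the start site, and Hsp90b1 alone holds 2.

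Together the 32 genes took 0.541% to 0.786% of all counts. Their summed level was 7632, 5405, 6705, 7245, 6728 and 7856 CPM in tumors 1 to 6, with a median of 6986. Tumor 2, the shallowest library, was lowest and tumor 6 highest, 1.45-fold apart. Hspa5 alone gave 25.3% to 30.7% of the sum.

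Hspa5, which encodes the chaperone BiP (ENSMUSG00000026864, chr2:34771970-34777547 in GRCm38), stood above the rest in every tumor. Its levels were 2258, 1657, 1945, 2023, 1704 and 2116 CPM in tumors 1 to 6. The lowest of these exceeded the highest value of any other member, 1429 CPM for Sec61a1 in tumor 1. Hspa5 also varied little, with an SD of 0.19 on the log2 scale, below that of all but 5.09% of the genes tested.

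Hsp90b1, which encodes GRP94, the ER member of the HSP90 family (ENSMUSG00000020048, chr10:86690209-86705509), had the widest range of the 32 genes. It measured 33.3 CPM in tumor 1 and 330, 356, 442, 523 and 584 CPM in tumors 2 to 6. After TMM scaling, its level in tumor 1 was 10.4-fold below the lowest of the other 5. Within each library, where scaling plays no part, there were 0.0147 Hsp90b1 counts per Hspa5 count in tumor 1, against 0.183 to 0.307 in the others.

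The remaining ATPase chaperone, Hyou1, a large HSP70 relative that helps BiP exchange its nucleotide, was low, at 4.07, 13.5, 21.1, 13.2, 11.4 and 8.20 CPM in tumors 1 to 6. It rested on only 24 to 87 counts, but its tumor 1 value (95% exact Poisson interval 2.61 to 6.06 CPM) and tumor 3 value (16.9 to 26.0 CPM) were apart by more than counting error. The J-domain cochaperones, which stimulate the ATPase of BiP, spanned a range of levels. Dnajc3 (p58IPK) had a median of 158 CPM, from 85.0 (tumor 1) up to 242 (tumor 4). Dnajb11 (ERdj3) kept within 31.5 to 46.1 CPM, and Dnajb9 (ERdj4), which also represses IRE1, within 14.3 to 41.2 CPM. Sdf2l1, a partner of ERdj3, lay between 12.5 and 22.6 CPM, and Manf, a secreted ER stress protein, between 21.5 in tumor 2 and 68.1 in tumor 5.

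The lectin chaperones calreticulin (Calr) and calnexin (Canx) hold newly made glycoproteins by their sugar chains. Calr measured 571, 363, 345, 505, 476 and 828 CPM in tumors 1 to 6, with tumor 6 well above the rest. Canx was steadier, from 299 in tumor 2 to 481 in tumor 5, with a median of 421. The count of Calr per count of Canx ranged from 0.928 in tumor 3 to 1.92 in tumor 6.

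Among the disulfide enzymes, tumor 1 separated 2 members of the family from 2 others. Pdia3 (ERp57), the oxidoreductase that works with the lectin chaperones, measured 53.6 CPM in tumor 1 and 296, 229, 414, 446 and 539 CPM in tumors 2 to 6, and Pdia4 (ERp72) 3.05 CPM and 37.1, 21.3, 47.6, 35.3 and 49.6 CPM. Both lay in tumor 1 below all other tumors, 4.15-fold and 6.78-fold below the lowest of them after TMM scaling. The 18 Pdia4 counts of tumor 1 have an exact 95% Poisson interval of 1.81 to 4.83 CPM, which does not reach the 17.1 to 26.3 CPM of tumor 3, the next lowest. In contrast, Pdia6 (437 CPM) and P4hb, the classical protein disulfide isomerase (429 CPM), were highest in tumor 1, against 220 to 379 and 227 to 332 CPM in the others. After TMM scaling they were only 1.03-fold and 1.14-fold above the highest of the others. Tumor 1 was also the highest tumor for 32.5% of all genes tested. Within each library, there were 0.125 Pdia3 counts per P4hb count in tumor 1 and 0.804 to 1.62 in the other 5.

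Creld2, a cysteine-rich protein induced by ER stress, measured 48.2 CPM in tumor 1 and lay within 25.7 to 30.1 CPM elsewhere. Without tumor 1, its SD of 0.08 on the log2 scale was lower than that of all but 0.943% of genes tested. Ero1lb, an oxidase that recharges protein disulfide isomerase, was near the floor with 4 to 36 counts (1.59 to 6.30 CPM). Pdia5 had 3 to 12 counts (1.20 to 2.40 CPM), and no difference between tumors was detectable at this depth.

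Of the sensors and their effector, Xbp1 was by far the most abundant. The mRNA of this transcription factor is spliced by IRE1, and reads at the 3′ end do not tell the spliced from the unspliced form. It measured 229, 202, 403, 297, 266 and 389 CPM in tumors 1 to 6, highest in tumors 3 and 6. The sensors themselves were scarce. Atf6 lay between 13.4 CPM in tumor 1 and 28.1 in tumor 4, and Ern1, which encodes IRE1, between 12.7 in tumor 6 and 23.9 in tumor 1. Eif2ak3, which encodes PERK, had 17 counts in tumor 1 (2.88 CPM, interval 1.68 to 4.62) and 8.0 to 17.2 CPM in the others, 2.69-fold below the lowest of them after TMM scaling.

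ERAD draws misfolded proteins out of the ER and tags them with ubiquitin. Sel1l, the scaffold of the main complex, was the most abundant of its 7 genes, with 403, 268, 314, 291, 217 and 214 CPM in tumors 1 to 6. Its ubiquitin ligase partner Syvn1 (HRD1) was far lower and more variable, from 6.79 CPM in tumor 1 to 34.7 in tumor 3. Herpud1, an ERAD adaptor strongly induced by ER stress, lay between 120 CPM in tumor 2 and 239 in tumor 1. The derlins, membrane proteins of the exit channel, differed in their levels. Derl1 measured 268 CPM in tumor 1 and 82.1 to 147 in the others, Derl2 72.0 to 142 with its highest value in tumor 3, and Derl3 7.99 to 18.7. Edem1, which recognises trimmed glycans, lay between 17.1 and 36.4 CPM.

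Tumor 3, the tumor with the most immune and erythroid RNA, was the highest in CPM for Xbp1, Hyou1, Syvn1, Derl2, Edem1, Dnajb11 and Ero1lb. On the TMM scale, Xbp1 and Dnajb11 were highest in tumor 6 instead. Tumor 3 was then the highest for 5 of 31 tested members (16.1%) and for 12.0% of all genes. The part of immune and erythroid cells in the values of tumor 3 was not tested. The plasma cell markers came to 28.1 CPM there, of which Prdm1 gave 15.5 CPM.

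The translocon is the channel through which new chains enter the ER. Sec61a1, its pore subunit, measured 1429 CPM in tumor 1, while the other 5 spanned 482 to 660 CPM, and was there 2.15-fold above the highest of them after TMM scaling. Sec61b, a small subunit of the same channel, did not follow it, with 20.9, 17.9, 58.2, 35.1, 59.1 and 54.5 CPM in tumors 1 to 6. Ssr1, a subunit of the translocon-associated protein complex, was the steadiest of the 32 genes, with 201 to 242 CPM, 1.21-fold from lowest to highest, and an SD below that of all but 0.687% of genes tested. Ssr3, of the same complex, lay between 120 CPM in tumor 2 and 264 in tumor 5.

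**Figure D2:**
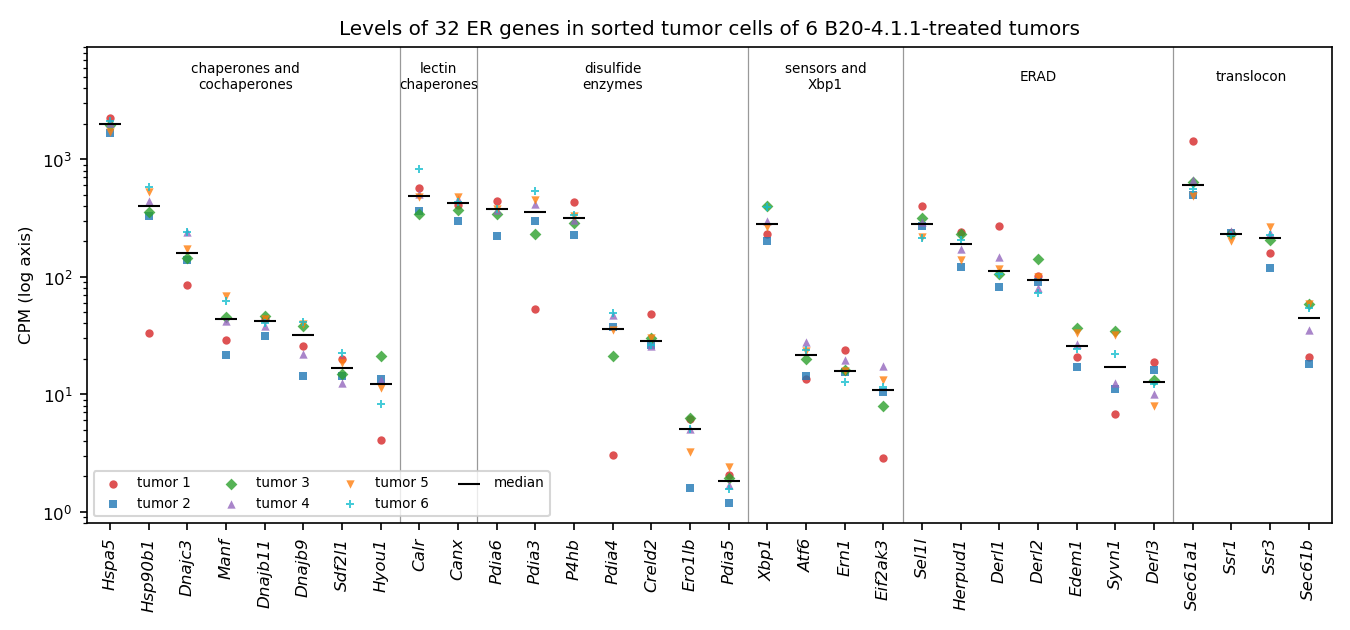
Level of each of the 32 genes in CPM on a log axis, with 1 symbol per tumor and a bar at the median of the 6, grouped by role and ordered by median. Tumor 1 (red circles) sits apart below for Hsp90b1, Pdia3, Pdia4, Eif2ak3 and Hyou1 and above for Sec61a1 and Derl1.

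By median CPM, a measure of 3′ tags, the order began with Hspa5 (1984), Sec61a1 (602), Calr (491), Canx (421), Hsp90b1 (399), Pdia6 (373), Pdia3 (355), P4hb (315) and Xbp1 (282), and ended with Hyou1 (12.3), Eif2ak3 (10.9), Ero1lb (5.09) and Pdia5 (1.82). Of the 31 neighbouring pairs in this order, 29 had overlapping values over the 6 tumors. The exceptions were Hspa5 over Sec61a1 and Derl2 (lowest 72.0 CPM) over Sec61b (highest 59.1 CPM). Per length of exon, as the median TPM (transcripts scaled to the library by length), Hspa5 was again first (1197), followed by Calr (438), Pdia3 (298) and P4hb (283), and Sec61a1, with long exons in the annotation, came eighth (223). Since 3′ tags depend little on transcript length, the order by CPM is nearer to what was counted.

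Set against all genes, tumor 1 was at least 2-fold below every other tumor for 5 of the 31 tested members (16.1%), namely Hsp90b1, Pdia4, Pdia3, Eif2ak3 and Hyou1, as it was for 8.77% of all 12088 genes. It was at least 2-fold above every other tumor for 1 member, Sec61a1 (3.23%), and for 3.46% of all genes. No other tumor stood 2-fold beyond the rest for any of the 31. Hsp90b1 was nevertheless extreme, its difference in tumor 1 (-3.72 on the log2 scale against the mean of the other 5) being lower than that of all but 0.182% of genes. For Pdia4 (-3.26) and Pdia3 (-2.81) these shares were 0.463% and 1.11%.

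The difference of tumor 1 went with base composition at the 3′ end. Over 12068 genes tested, it had a Spearman correlation across genes of 0.41 with the GC share of the last 300 bases of the longest transcript, genes of 1 library not being independent. Among the 3034 genes with the least GC (up to 36.0%) the median difference was -0.46, and among the 2906 with the most (from 49.0%) it was 0.54, on the log2 scale. The last 300 bases were 26.7% GC in Eif2ak3 and 29.7% in Pdia4, but 39.3% in Hyou1, 41.3% in Hsp90b1 and 45.0% in Pdia3, beside a median of 42.3% over genes tested. Hspa5, with the same share as Hyou1, differed by only 0.21. Sec61a1 (53.0% GC) differed by 1.29, and the GC-poor Ern1 (31.0%) and Ssr3 (27.3%) by 0.52 and -0.39. Across the 31 tested members, the Spearman correlation of GC share and difference was 0.29. The part of base composition in the values of tumor 1 was not tested. None of the last 300 bases of the 32 genes held a stretch of 50 bases found in another annotated gene. Hsp90b1, Pdia3 and Syvn1, among others, overlap genes on the opposite strand, and whether the counting used the strand was not given in the sources used here. Other members overlap annotated genes on their own strand, which strand-aware counting would not separate, among them Hsp90b1 (Gm15344 and Gm25745), Manf (Rbm15b), Pdia4 (Mir704) and Eif2ak3 (Gm23346), and how reads in such overlaps were assigned was not given either.

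Tumor 6 was the highest tumor for 14 of 31 members (45.2%) on the TMM scale, against 9.81% of all genes tested. These included 7 of the 8 chaperones and cochaperones (all but Hyou1) and both lectin chaperones, but 0 of 7 ERAD genes. The count depended on scaling, with 13 of 31 by DESeq2's size factors (9.45% of all genes), 9 of 31 in CPM without the 10 most abundant genes (6.90%) and 6 of 31 in CPM over all genes (4.43%). Hsp90b1, Dnajb9, Sdf2l1, Calr, Pdia3 and Pdia4 had their highest value in tumor 6 under all 4 scalings. Tumor 2 was the lowest for 13 of 31 (41.9%), against 21.4% of all genes, and this count lay between 12 and 14 under the other scalings.

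**Figure D3:**
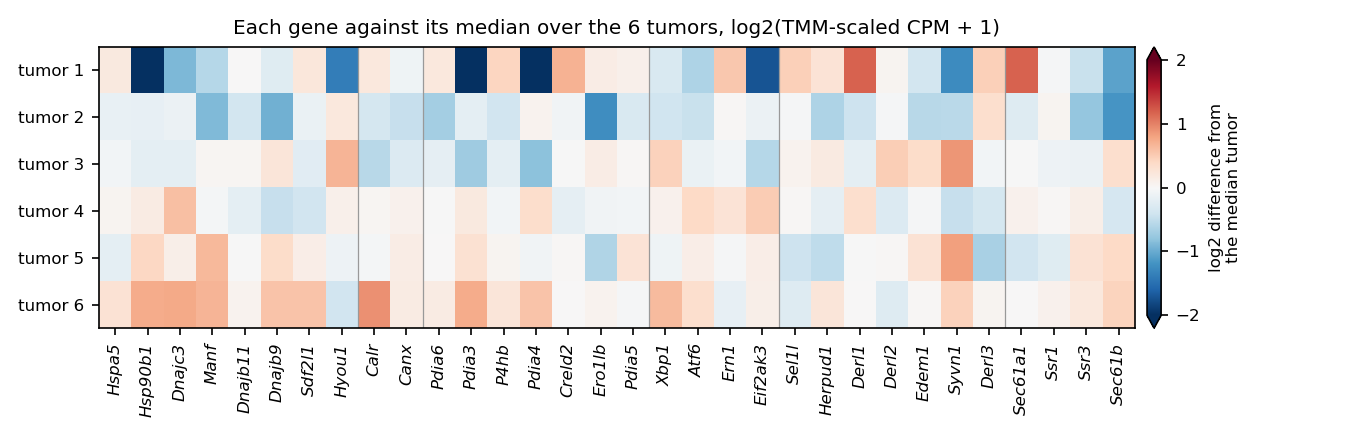
Difference of each tumor from the gene's median over the 6 tumors, in log2(TMM-scaled CPM + 1), with red above and blue below the median and colors saturating at 2. Tumor 1 shows both the deepest blue (Hsp90b1, Pdia3, Pdia4) and strong red (Sec61a1, Derl1), while in tumor 6 most chaperones and lectins are red.

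As a whole, the members varied between tumors about as much as other genes. Their median SD was 0.42 on the log2 scale, beside 0.45 over all genes tested, and without tumor 1 it was 0.38 beside 0.35. The biological coefficient of variation estimated by edgeR lay above the trend for genes of like level in 13 of 31 members, and in 33.1% of all genes.

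Whether the members followed Hspa5, the usual readout of the unfolded protein response, was examined across the 6 tumors. Of the other 30 members, 22 had a Pearson r above 0 with Hspa5, beside 48.4% of all genes, and their median r was 0.32 beside -0.02. None of the 30 passed an adjusted p of 0.05 in the exact two-sided permutation test over the 720 orders of the tumors, nor did any of the 12087 genes (0.0%), for which the lowest adjusted p was 0.943 and the smallest p possible is 0.00139. At an unadjusted p under 0.05, there were 1 of 30 members and 2.73% of all genes. That member was Calr (r = 0.80, exact permutation p = 0.0486, rho = 0.77, exact permutation p = 0.103). Its r was 0.82 without tumor 1. It was 0.18 once tumors 1 and 6, whose Hspa5 levels lie farthest from the median, were both left out. Among tumors 2 to 6, the relation of Calr to Hspa5 therefore rests on tumor 6.

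The highest r was that of Herpud1 (r = 0.82, exact permutation p = 0.0625, rho = 0.83), which kept an r of 0.63 without tumors 1 and 6. The lowest was that of Hyou1, with an r of -0.61. Without tumor 1 the median r over the 30 members was 0.45, and without tumor 6 it was 0.02. Hsp90b1 and Pdia3, at -0.32 and -0.22 over all 6 tumors, had an r of 0.62 and 0.57 without tumor 1. The 5 genes outside the list with the highest r with Hspa5 among those of at least 50 CPM were Eapp (0.96), Emp2 (0.94), Scd1 (0.94), Cog8 (0.93) and Alg14 (0.92), each with an adjusted p of 0.943.

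Among themselves, the 31 members had a median Pearson r of 0.22 over their 465 pairs, beside a median of 0.00 (-0.0001) over all pairs of genes tested. An r over 0.8 was found for 8.60% of their pairs and for 6.47% of all pairs. Without tumor 1 the median was 0.34 and the share 12.5%, beside 6.96% of all pairs. The median was 0.11 without tumor 2 and 0.13 without tumor 6. For tested genes of lists outside the ER, the median over all 6 tumors ran from 0.08 (5 fibroblast markers) to 0.98 (3 erythroid genes). It was 0.21 among 18 heat shock genes, 0.41 among 7 luminal markers and 0.58 among 7 milk protein genes. A median as high as that of the members was thus not particular to ER genes. Pairs share the same 6 libraries and are not independent, and no test was made. Hsp90b1 and Pdia3 ranked the 6 tumors identically (r = 0.98, and 0.94 without tumor 1), as did Manf and Sec61b (r = 0.94, and 0.93 without tumor 1) and Pdia6 and P4hb (r = 0.91, and 0.94 without tumor 1). In contrast, Hsp90b1 and Sec61a1 had an r of -0.92 that was 0.06 without tumor 1.

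**Figure D4:**
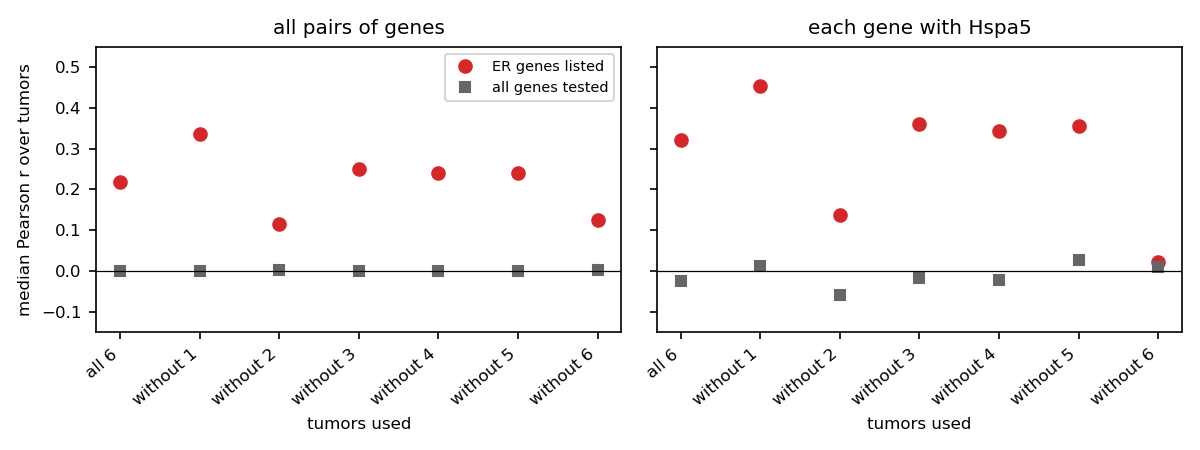
Median Pearson r over the tumors for all pairs of genes (left) and for each gene with Hspa5 (right), with all 6 tumors and with each left out in turn, for the ER genes listed (red circles) and all genes tested (gray squares). The ER genes lie above all genes in every case, but with Hspa5 and without tumor 6 by only 0.01.

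Members with and without an ERSE in their promoter were also set side by side. The 10 members with an ERSE had a median r with Hspa5 of 0.42 (9 genes), and the 16 tested members with a promoter but no ERSE one of 0.28. Over pairs within each set the median r was 0.21 and 0.14, and without tumor 1 it was 0.37 and 0.19. Of the 27 genes outside the list with an ERSE, 6 were tested, and their median r with Hspa5 was -0.36. Those 6 were low, with median levels of 2.36 to 35.5 CPM. The sets differed in level, the median over genes being 266 CPM for members with an ERSE, 69.7 CPM for members without and 10.1 CPM for the 6. These are descriptions without a test.

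The study compares tumors by hypoxia, and the relation of these genes to it could be examined here only through the 3-gene score of Vegfa, Slc2a1 and Car9. The mean TPM of these genes was 48.5, 37.2, 51.4, 76.6, 94.4 and 47.3 in tumors 1 to 6. With edgeR's quasi-likelihood test of the slope on log2 of the score, 0 of 31 members passed an adjusted p of 0.05 and 0 of 31 an unadjusted p of 0.05. Over all 12088 genes 0 (0.0%) passed the adjusted and 510 (4.22%) the unadjusted threshold, and DESeq2 called 15 genes, none of them a member. The slopes were above 0 for 18 members and below 0 for 13, with a median of 0.06 beside -0.04 over all genes.

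The member with the steepest slope was Derl3, at -0.85 (SE 0.38) on the log2 scale per doubling of the score, with an unadjusted p of 0.0504 and an adjusted p of 0.954 by edgeR. Its levels were 18.7, 15.9, 13.1, 10.0, 7.99 and 12.1 CPM in tumors 1 to 6, from 110, 40, 54, 47, 40 and 62 counts. They were lowest in tumors 5 and 4, the tumors with the highest scores. Its exact Poisson intervals in tumors 5 (5.71 to 10.9 CPM) and 4 (7.35 to 13.3 CPM) overlapped those in tumors 6 (9.28 to 15.5 CPM) and 3 (9.84 to 17.1 CPM). Its interval in tumor 2 (11.4 to 21.7 CPM) overlapped that in tumor 4 but not that in tumor 5. Its unadjusted p was under 0.05 in 4 of 13 alternatives (DESeq2's size factors, a minimum of 50 counts, the score taken from CPM, and without tumor 1), with adjusted p-values of 0.584 to 1 over the 13 alternatives. Its Pearson r with the score was -0.91 (exact permutation p = 0.0181, adjusted p = 0.969 over all genes) and rho -0.83 (exact permutation p = 0.0583). The r was -0.46 once tumors 4 and 5 were left out, so the relation rests on those 2 tumors. Upward slopes were largest for Manf (0.68, SE 0.46), Sec61b (0.62, SE 0.54), Eif2ak3 (0.62, SE 0.59) and Ssr3 (0.60, SE 0.36), and none of these passed the test, although Manf and Ssr3 had an unadjusted p under 0.05 without tumor 6. Hspa5 had a slope of -0.12 (SE 0.36), Hsp90b1 of 0.44 (SE 0.81) and Xbp1 of -0.02 (SE 0.44). The SEs ran from 0.31 to 0.81, and a missed threshold does not show that the genes are unrelated to the score.

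**Figure D5:**
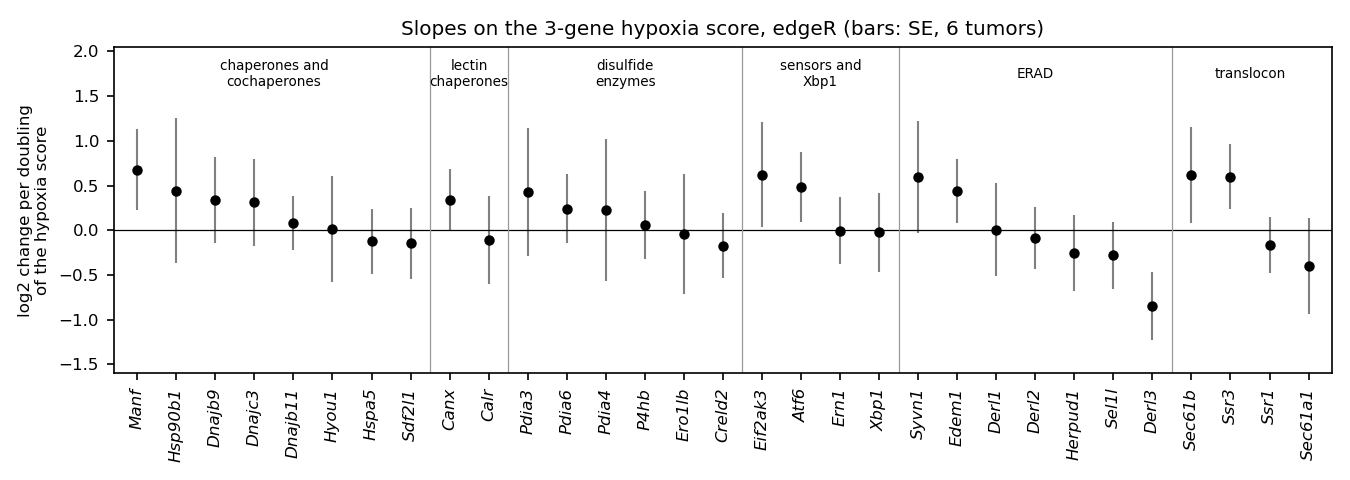
Slope of each of the 31 tested genes on log2 of the 3-gene hypoxia score, as log2 change per doubling of the score, with bars for the SE from edgeR over 6 tumors, grouped by role. Slopes lie on both sides of 0 in each role, from -0.85 for Derl3 to 0.68 for Manf.

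Other genes of the pathway showed the same lack of calls along the score. No gene passed an adjusted p of 0.05 by edgeR among 7 genes of the PERK and ATF4 arm, 18 other translocon and signal recognition genes, 16 N-glycan genes, 25 other ER folding genes, 22 other ERAD genes and 12 other regulators. At an unadjusted p under 0.05 the counts were 0, 0, 0, 1, 2 and 0. In the PERK and ATF4 arm, 5 of 7 slopes were below 0, with a median of -0.38. Atf4, the transcription factor whose translation PERK promotes, measured 1362, 865, 575, 725, 567 and 741 CPM in tumors 1 to 6, and its target Ddit3 (CHOP) 120, 80.1, 70.3, 67.9, 61.5 and 54.1 CPM. Both were highest in tumor 1. After TMM scaling, that tumor was the highest for 4 of the 7 tested genes of this arm and for 32.5% of all genes tested. Trib3, another target, was also highest there, at 32.6 CPM against 12.1 to 25.7 CPM. Atf3, a stress-induced transcription factor of the same arm, was not, with 163, 443, 108, 296, 236 and 347 CPM in tumors 1 to 6. Ppp1r15a (GADD34), which reverses the phosphorylation made by PERK and is named after its values were seen, measured 7.30 CPM in tumor 1 against 19.1 to 24.9 CPM in the others, the reverse of Atf4, Ddit3 and Trib3.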

How the data were processed

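RNA of sorted CD45-EPCAM+ tumor cells from 6 mice was measured by 3′ sequencing. The authors aligned reads to GRCm38 with STAR 2.5 and counted them with HTSeq, and deposited raw read counts per gene. The kit adds 6-base molecular identifiers. Use of these identifiers to collapse reads, use of the strand in counting and the annotation release are not given in the sources used here, so counting error is all that intervals and floors cover.

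Per file, 5 lines without a gene (16.1% to 41.4% of reads) were left out. Gene names and exon lengths came from GENCODE M21, which held 47224 of 47643 identifiers. CPM used all genes, and TPM union exon lengths. Genes were kept if at least 3 libraries reached the CPM of 10 counts in the median library and the total was at least 15 counts. TMM-scaled CPM (factors 0.910 to 1.06) plus a pseudocount of 1 was used on the log2 scale. Slopes were tested with edgeR's quasi-likelihood test (glmQLFit and glmQLFTest, 12088 genes, Benjamini-Hochberg). In simulated counts, 200 of 12088 genes were given a change of 2 or -2 on the log2 scale per doubling of the score. They were drawn from genes expected to reach 10 counts in the smallest library. There, edgeR recovered 40.0% of these 200 genes, and 4.76% of its calls were false. DESeq2 recovered 67.5%, and 18.7% of its calls were false. The steepest member slope was -0.85, so recovery at slopes of the members' size was not measured. Relations to Hspa5 used Pearson's r and Spearman's rho with exact permutation p, adjusted over 12087 genes. Promoters came from RefSeq. Protein sequences were not analysed here.

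The text names all 32 members, the score genes, at most 4 genes of each list by mean CPM, and 5 genes like Hspa5. Names outside this rule are said to be so, marker genes and genes that overlap members aside. Members and lists were chosen with earlier results of these data known. Alternatives were DESeq2, other scalings, filters, pseudocounts and scores, the prefix of the mouse identifier as a term, and each tumor left out. Software was R 4.3.3, edgeR 4.0.16, DESeq2 1.42.0, Python 3.11.15, numpy 2.4.6 and SciPy 1.17.1.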

Additional observations from a re-analysis of the deposited data

Results flagged for a closer look

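The 6 CPM values of each of the 32 members were checked for 1 tumor far from the others, by its gap to the nearest other tumor over the range of the 6, against Dixon's 95% critical value of 0.625. Chance flags about 1 in 20 such sets, a share that does not allow for a library that stands apart. There were 3 members beyond the critical value, each with its highest value in tumor 1, the library that stands apart. The check was not run over all genes, so this count has no share beside it. After TMM scaling, 32.5% of all genes tested were highest in tumor 1. Sec61a1, the pore of the translocon, measured 1429 CPM there against at most 660 CPM in the other tumors. Derl1, of the ERAD exit channel, measured 268 CPM against at most 147 CPM. Creld2 measured 48.2 CPM against at most 30.1 CPM. The low values of Hsp90b1, Pdia3 and Pdia4 in tumor 1 did not pass this check, since on the CPM scale the other 5 tumors also spread widely.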

How the results depend on the processing

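The count of members called along the hypoxia score stayed at 0 in all 13 alternatives. With Hspa5 it was 0 throughout, but the permutation test can give no p under 0.00139, too coarse to call a gene after adjustment unless many share that p, so this says nothing about stability. Over all genes, calls along the score were 15 with DESeq2, 23 of 21717 without a filter, and 0 to 2 with a tumor left out (2 without tumor 1), against 0 in the main test. The median slope of the members moved between -0.11 and 0.24 with a tumor left out. The median r with Hspa5 was 0.022 to 0.45 with a tumor left out, lowest without tumor 6 and next without tumor 2 (0.14). The median r over member pairs was 0.11 to 0.34, lowest without tumor 2 and highest without tumor 1. The count of members highest in tumor 6 was 14 in the main scaling and, in alternatives chosen after seeing the data, 6 in CPM and 9 without the 10 most abundant genes, and the cause was not tested. Members at least 2-fold below every other tumor in tumor 1 were 4 in CPM and 5 in the other scalings, and Sec61a1 was no longer 2-fold above without the 10 most abundant genes. The median summed level was 8583 CPM without the 10 most abundant genes, whose removal shrinks the totals, and 6728 to 7245 with a tumor left out. Members with a dispersion above the trend were 11 to 13 with a tumor left out. No paired analysis was possible because all samples are of 1 group. Depth limits Pdia5, Ero1lb, Eif2ak3 and Hyou1, with under 100 counts in each tumor. Counts were also low for Derl3, the member with the steepest slope, at 40 to 62 in tumors 2 to 6 and 110 in tumor 1.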

Other observations

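Over the 6 other ER lists, of 100 tested genes, tumor 1 was at least 2-fold below every other tumor for 8 (8.0%) and at least 2-fold above for 2 (2.0%), shares that do not exceed the 8.77% and 3.46% of all genes tested. These genes are named here after their values were seen. Below were Lman1, a cargo receptor for glycoproteins (67.7 CPM against 289 to 405), Calu, a calcium-binding ER protein (12.2 against 50.4 to 170), Dnajc1 (73.8 against 192 to 230), Sec62 (141 against 287 to 564), Ppp1r15a, the phosphatase subunit GADD34 (7.30 against 19.1 to 24.9), Srpr, Ubxn4 and Selenos. Above were Cnpy3, a cochaperone of GRP94 (327 against 47.0 to 75.4 CPM), and Prkcsh, the beta subunit of glucosidase II (301 against 93.4 to 122). In tumor 1 GRP94 itself and its cochaperone lay at opposite ends, as did Sec61a1 and Sec62 of the translocon. These pairs were picked after their values were seen. Tumor 1 was the lowest tumor for 31.0% and the highest for 32.5% of all genes tested.

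Of 18 cytosolic and mitochondrial heat shock genes, 2 (11.1%, against 8.77% of all genes) were at least 2-fold below every other tumor in tumor 1, Hspa8 and Hsp90aa1 (234 against 806 to 1099 CPM). In the other direction were 3 (16.7%, against 3.46%), Dnajb1, Cct5 and Stip1, of which Cct5 measured 518 against 173 to 238 CPM. Hspa8, Dnajb1 and Stip1 are named here after their values were seen. The median r over pairs was 0.22 among the 31 members tested (0.34 without tumor 1). It was 0.40 (0.59) among 16 N-glycan genes, 0.24 (0.38) among 25 other ER folding genes, 0.21 (0.07) in the PERK and ATF4 arm, 0.16 (0.31) among other regulators, 0.12 (0.21) among other translocon genes and 0.04 (0.09) among other ERAD genes.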
